A study of Mus musculus with 10 samples.

Results

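The genotype difference between macrophages lacking WASp and wild-type macrophages was described here after 1 h of vertical confinement. Its members are the 6 confined libraries among the 10 RNA sequencing libraries of the series, chosen by their genotype and treatment labels: 3 wild-type (WT) libraries, replicates 2, 3 and 6, and 3 WASp knockout (WKO) libraries, replicates 1, 2 and 5. All were primary macrophages that had been differentiated in culture from mouse bone marrow. Marrow of either genotype was cultured for 7 days with 20 ng/mL recombinant macrophage colony-stimulating factor. The cells were then pressed to a height of 3 µm under silicone micropillars, and 5 ng of total RNA per library went into an mRNA library kit. The other 4 libraries, 2 WT and 2 WKO, were grown in the same way but not confined, and serve below only for comparison. The labels give neither the knockout allele, strain, sex or age of the mice, nor whether libraries of a group came from different animals or cultures, so that p-values measure only the spread between these libraries, which may be technical. They also do not say whether unconfined cells had been placed in the device.

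WASp, the product of the X-linked gene Was, is found in blood cells and switches on the Arp2/3 complex, which nucleates branched actin filaments. In macrophages it is needed for podosomes, the actin-rich adhesion points with which these cells attach and degrade matrix, and its loss in humans causes the immunodeficiency Wiskott-Aldrich syndrome. Cells squeezed into narrow spaces assemble actin around the nucleus and can rupture their nuclear envelope. The title of the series places WASp at the link between actin assembly, such rupture and inflammation.

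The deposited values are normalized read counts, that is reads divided by 1 factor per library. The 6 confined libraries held between 13295701 and 19329908 reads, so that 3 reads, taken as the detection floor, equal a normalized count between 2.35 and 3.59. The summed level of 14 macrophage markers was high in all 6, between 337709 and 420140. The WKO libraries were more spread than the WT libraries, with a median within-group SD of 0.26 against 0.15 on the log2 scale. WKO replicate 5 stood apart from the other WKO libraries on the second principal component, at 44.5 against -47.7 and -20.3 for replicates 1 and 2. It also held the highest level of 19 of 20 stromal markers, and results that rest on it are given with and without it.

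Among 12381 genes with a mean normalized count of at least 10 over the 6 libraries, 118 passed limma's moderated test at a Benjamini-Hochberg adjusted p below 0.05, on the scale log2(normalized count + 1). Fold changes and medians below are log2 differences, WKO minus WT, on that scale. The 118 genes are 0.953% of those tested. Of these, 60 were higher in WKO (0.485%) and 58 were lower (0.468%), and 71 differed by at least 2-fold, 40 of them higher. In all 118 the 3 WKO libraries lay entirely above or entirely below the 3 WT libraries. Over all tested genes, 10.7% had such a gap upward and 10.4% downward, and 1768 genes had an unadjusted p under 0.05. Among the 118, 38 belong to the 28 functional or 9 cell type lists that order the account below. At a share of 0.953%, lists of these sizes would hold few calls, so that 0 calls does not set a list apart. In bulk RNA, fewer cells of a type and less RNA per cell cannot be told apart, which holds for every difference given here.

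The number of passing genes depended strongly on which libraries entered. It was 2 without WT replicate 2, 11 without WT replicate 3 and 11 without WT replicate 6, 58 without WKO replicate 1, 13 without WKO replicate 2 and 255 without WKO replicate 5. Of the 118 genes, 114 passed without WKO replicate 5. The 2 genes left without WT replicate 2 were Was and Nes, so that every other call described below was lost in that analysis. Lost calls named below are those from leaving out 1 library, with some by edgeR, and other analyses lost calls too. Without limma's mean-variance trend, 9 of the 118 genes passed. By edgeR, 86 of the 118 passed. Among the genes named by rule below, Mmp9, Mmp14, Fcgr2b, C1qc, Cdkn1c, Cyp51, Fdps, Fosb, Il1r2 and Il1rl1 missed its threshold, with edgeR adjusted p between 0.051 and 0.063. A correction for GC content and transcript length gave 96 higher and 231 lower genes, against 60 and 58, and so moved the balance of directions, with a median of all genes of -0.07 after it.

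**Figure D1:**
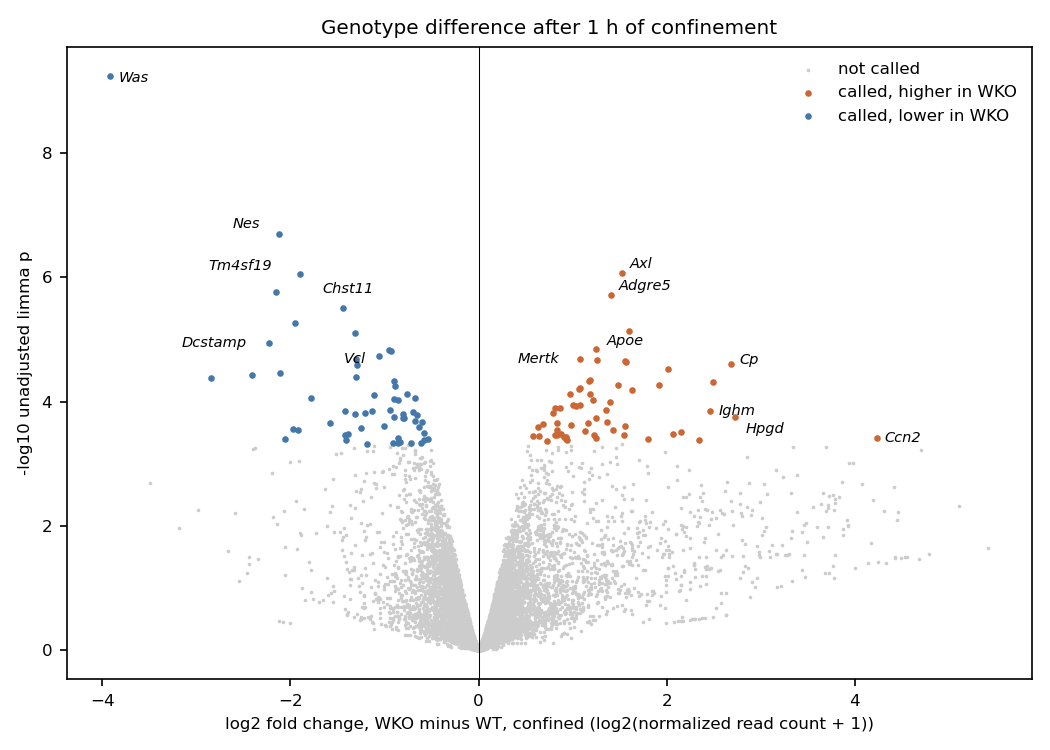
Each point is a gene: the horizontal axis is the log2 fold change, WKO minus WT, between the confined libraries on the log2(normalized read count + 1) scale, and the vertical axis is the negative log10 of the unadjusted limma p. The 60 genes called higher are orange and the 58 called lower are blue; Was lies farthest to the left among the called genes, at -3.91, and Ccn2 farthest to the right, at 4.23.

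Was itself checked the labels. Its normalized count was 1618, 1570 and 1649 in WT replicates 2, 3 and 6, and 98.9, 96.9 and 125 in WKO replicates 1, 2 and 5; values of other genes are given below in the same order. Every WKO library was far below every WT library, and the WKO mean of 107 ± 15.5 (SD, n = 3) was 6.62% of the WT mean of 1612 ± 40.1 (SD, n = 3). The log2 fold change was -3.91 (SE 0.14, limma adjusted p 7.07e-06), and the gene passed in all 19 alternative analyses. The 10 tested genes on each side of Was on the X chromosome were read for linked sequence. By limma 0 of these 20 passed. Only 0.953% of all tested genes did, so that a count of 0 among 20 cannot decide whether linked sequence differs. Without overlap, 2 of the 20 were higher (background 10.7%) and 2 lower (background 10.4%). Their fold changes ran from -2.59 to 0.52. The lowest belonged to Lancl3, chosen after its values were seen, at 25.7, 24.6 and 28.1 in WT and 0.785, 5.26 and 7.19 in WKO libraries (limma adjusted p 0.145), close to the floor in WKO. Lancl3 passed in 2 of 18 alternative analyses.

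Among other regulators of actin nucleation, Abi3 rose. The list of WASp, WAVE and formin proteins had 40 tested members, of which Was fell and Abi3 rose. In all, 19 members had a positive and 21 a negative fold change, with a median of -0.03 against 0.00 over all tested genes. Without overlap, 5 were higher and 9 lower, against a background of 10.7% and 10.4%, and 7 had an unadjusted p below 0.05. Abi3 encodes a relative of the Abi adaptors of the WAVE complex, which activates Arp2/3 at the leading edge. Its normalized count was 104, 116 and 143 in WT and 418, 295 and 369 in WKO, and every WKO value lay above every WT value (log2 difference 1.57 ± 0.20 SE, adjusted p 0.0144 by limma). Its exons overlap those of Gngt2, Phospho1 and Zfp652, so that the count is uncertain, and it did not pass without WT replicate 2, 3 or 6 or WKO replicate 2. Cyfip2, a subunit of the WAVE complex picked after its values were seen, was 3312, 3099 and 3198 in WT and 2094, 2435 and 2224 in WKO (log2 difference -0.51 ± 0.11 SE, adjusted p 0.0649 by limma). The groups did not overlap for Cyfip2, but it missed the threshold. Wasl, the broadly expressed relative of WASp and likewise picked afterwards, overlapped between the groups at 496, 351 and 490.1 in WT and 417, 538 and 601 in WKO.

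The Arp2/3 complex, the nucleator that WASp activates, had 10 tested subunit genes, and 0 of them passed by limma, edgeR or DESeq2. Their median fold change was -0.11, with 8 negative values, and 1 of them had an unadjusted p below 0.05. Of its actin-related proteins, Actr3 was 16512, 16011 and 16907 in WT and 14792, 16085 and 16065 in WKO (log2 difference -0.08 ± 0.10 SE, adjusted p 0.798 by limma), with overlapping groups. Actr2 was 13067, 12801 and 12867 in WT and 8751, 12277 and 10632 in WKO (log2 difference -0.30 ± 0.13 SE, adjusted p 0.346 by limma), where the WKO libraries lay below the WT libraries but were spread widely. Actr3 shares 91.5% of its longest transcript with Gm8822, so that its count is uncertain.

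Of 8 tested intermediate filament and cytolinker genes, Nes fell and Dst rose. Nes (ENSMUSG00000004891) encodes nestin, an intermediate filament protein. Its normalized count was 2315, 2324 and 2027 in WT and 450.3, 631 and 459 in WKO, with the WKO libraries close together and far below WT. The mean was 2222 ± 169 in WT and 513 ± 102 in WKO (SD, n = 3 each), and the log2 fold change of -2.13 (SE 0.15, limma adjusted p 0.00126) passed in all 19 alternative analyses. Dst, which encodes a linker between filament systems, moved the other way at 311, 259 and 282 in WT and 465, 473 and 557 in WKO, without overlap (log2 difference 0.81 ± 0.15 SE, adjusted p 0.0449 by limma). The other 6 did not pass, and the median of the list was -0.22. Vim, the main intermediate filament gene of macrophages and picked after its values were seen, was 46073, 45580.0 and 48305 in WT and 42328, 32989 and 42507 in WKO (limma adjusted p 0.429). Dst lost its call without WT replicate 2, 3 or 6 or WKO replicate 1 or 2, and its exons overlap those of Gm26788, which leaves its count uncertain.

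Vcl fell. It encodes vinculin, which couples integrin adhesions and podosomes to actin. Its normalized count was 2543, 2425 and 2602 in WT and 1054, 1193 and 1422 in WKO, and the highest WKO value stayed well below the lowest WT value (log2 difference -1.05 ± 0.13 SE, adjusted p 0.0144 by limma). The mean was 2523 ± 90.3 in WT and 1223 ± 186 in WKO (SD, n = 3 each). Vcl overlaps Ap3m1, with which it shares 39.8% of its longest transcript, so that its count is uncertain, and it did not pass without WT replicate 2, 3 or 6 or WKO replicate 2. Vcl was 1 of 27 tested genes in a list of actin genes controlled by the factor SRF and its actin-sensing partner MRTF, and the only one that passed. Of these 27, 20 had a negative fold change, 11 were lower without overlap (background 10.4%) and 5 higher without overlap (background 10.7%), and the median was -0.27.

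SRF binds the CArG box, and the promoter of Vcl holds one. The sequence below is shown because Vcl is the called gene of that list; it covers the 250 bases before the start of the gene on the plus strand at chr14:20929148-20929397 of GRCm38.p6 (RefSeq), written 5′ to 3′, with the CArG box in capitals.
Vcl: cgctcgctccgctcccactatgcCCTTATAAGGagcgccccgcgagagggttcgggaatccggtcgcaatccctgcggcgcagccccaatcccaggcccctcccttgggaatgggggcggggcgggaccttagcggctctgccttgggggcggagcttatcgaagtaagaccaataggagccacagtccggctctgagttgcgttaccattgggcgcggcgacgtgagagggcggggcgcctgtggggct
The box begins 227 bases before the start. Searched on both strands in windows of 300 bases, from 250 before to 50 after each start, a CArG box was found for 7 of the 25 matched genes of the list (28%), against 138 of 9377 matched tested genes (1.47%). Because the list was chosen as genes controlled by SRF, its share does not describe the genotype difference. Among called genes, 1 of 40 matched higher and 1 of 40 matched lower genes held a CArG box (2.5% each). The match is a description of these letters and shows no binding.

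Without WKO replicate 5, 5 members of that list passed as lower and 1 as higher. Fold changes of the whole list ran from -1.05, that of Vcl, to 4.08 in a member that did not pass. Several abundant members had non-overlapping lower values but missed the threshold. Actb, which encodes beta-actin, was 131200.0, 129740.0 and 139410.0 in WT and 74687, 96419 and 98039 in WKO (log2 difference -0.58 ± 0.15 SE, adjusted p 0.112 by limma). Tln1, for the integrin activator talin, was 42305, 39414 and 37019 in WT and 27638, 27216 and 20641 in WKO (log2 difference -0.66 ± 0.14 SE, adjusted p 0.0699 by limma), with an adjusted p of 0.0473 without WKO replicate 5. All WKO libraries lay below all WT libraries for both genes, and WKO replicate 1 was lowest for Actb and replicate 5 for Tln1. Flna and Actg1, picked after their values were seen, were lower by -0.68 and -0.55 in log2 (adjusted p 0.0528 and 0.0719 by limma). Tln1 and Actg1 overlap exons of other genes and their counts are uncertain.

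Genes of podosomes and integrin adhesion showed no common shift by count. Of 28 tested, 0 passed by limma or edgeR and 4 by DESeq2, and 11 had an unadjusted p below 0.05. Without overlap, 7 were higher (background 10.7%) and 7 lower (background 10.4%). The median was -0.11. The abundant members Lcp1, for the actin bundler L-plastin, and Adam8, a membrane protease, had fold changes of -0.27 and -0.42 (limma adjusted p 0.306 and 0.203). Both overlap exons of predicted genes and are uncertain. The lowest p of the list belonged to Itgb3, for integrin beta 3, at 667, 577 and 743 in WT and 438, 356 and 340.3 in WKO (log2 difference -0.81 ± 0.16 SE, adjusted p 0.051 by limma). All 3 WKO libraries lay below WT for Itgb3.

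Trpv4, for a cation channel that responds to osmotic and mechanical load, was 67.5, 83.3 and 56.2 in WT and 179, 162 and 288 in WKO, with WKO replicate 5 highest (log2 difference 1.56 ± 0.27 SE, adjusted p 0.0394 by limma). Piezo1, for a mechanically gated channel and picked after its values were seen, was 9629, 9142 and 9736 in WT and 6656, 6265 and 5876 in WKO (log2 difference -0.60 ± 0.10 SE, adjusted p 0.0372 by limma), and its WKO libraries were close together below WT. Trpv4 did not pass without any WT library or without WKO replicate 1 or 2. Piezo1 overlaps exons of Ctu2 and is uncertain.

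**Figure D2:**
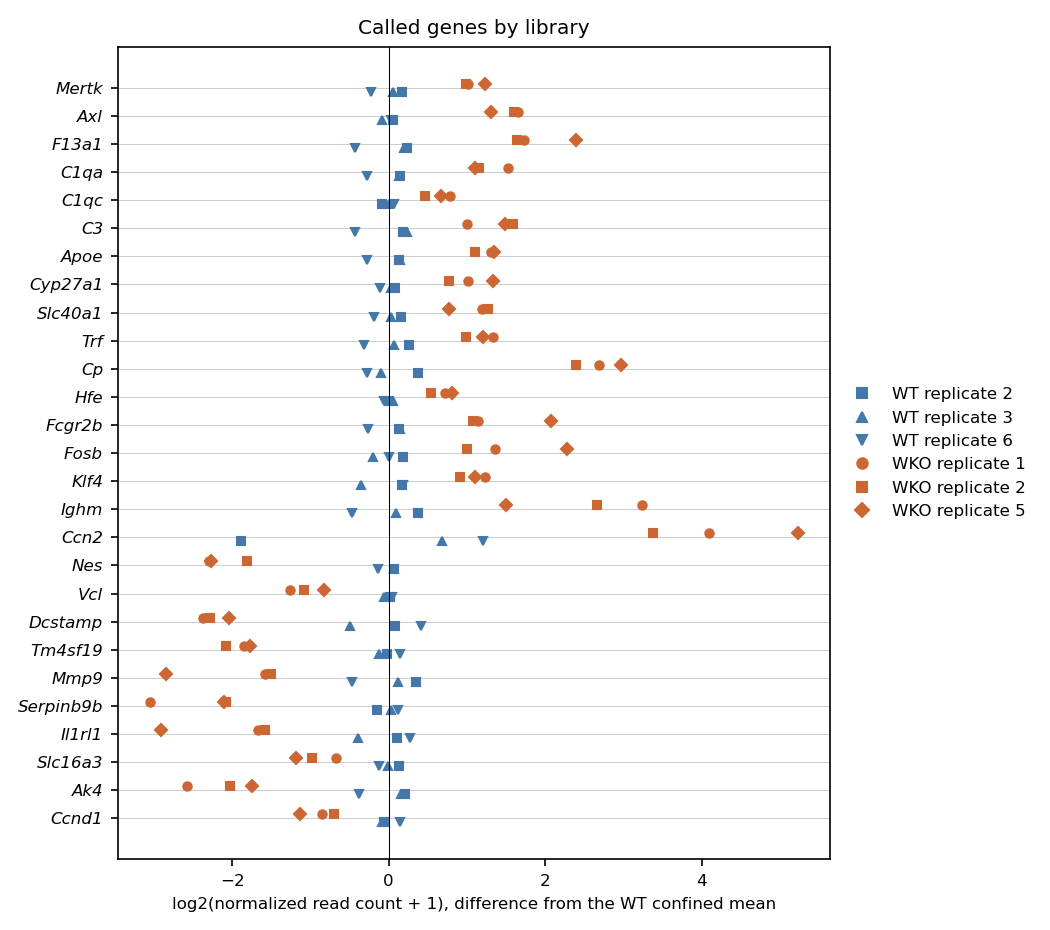
Each row is 1 of 27 called genes and each point 1 confined library, placed by its log2(normalized read count + 1) minus the mean of the 3 WT libraries. In every row the 3 WKO points lie on 1 side of the 3 WT points.

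Genes of macrophage fusion and osteoclast-like function held several of the larger losses. Of 24 tested, 3 fell and 1 rose, and the median was -0.35. Without overlap, 10 were lower (background 10.4%) and 3 higher (background 10.7%). Dcstamp (ENSMUSG00000022303) encodes a membrane protein needed for macrophages and osteoclasts to fuse; it was 274, 184 and 345 in WT and 49.4, 52.6 and 62.3 in WKO (log2 difference -2.23 ± 0.26 SE, adjusted p 0.0128 by limma). Tm4sf19, for a tetraspanin-like protein, was 459, 425 and 513 in WT and 128, 109 and 135 in WKO (log2 difference -1.90 ± 0.16 SE, adjusted p 0.00275 by limma). For both genes the WKO libraries were tightly grouped, and the lowest WT value was far above every WKO value.

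The matrix metalloproteases went in opposite directions. Mmp9, for the secreted gelatinase, was 4391, 3758 and 2495 in WT and 1153, 1220.2 and 482 in WKO (log2 difference -1.97 ± 0.34 SE, adjusted p 0.0417 by limma), with WKO replicate 5 lowest. Mmp14, for the membrane-type collagenase that podosomes carry, was 132, 101 and 128 in WT and 382, 333 and 1011 in WKO (log2 difference 2.07 ± 0.37 SE, adjusted p 0.0449 by limma), with WKO replicate 5 far above the other libraries. No WKO value of either gene overlapped WT. Ctsk, for the collagen-degrading cathepsin K and picked after its values were seen, was 346, 282 and 282 in WT and 176, 166 and 131 in WKO, just short of the threshold (log2 difference -0.94 ± 0.18 SE, adjusted p 0.051 by limma). Serpinb9b, for a serpin protease inhibitor, had 1 of the largest losses, at 123, 139.6 and 149 in WT and 15.7, 31.6 and 31.2 in WKO (log2 difference -2.41 ± 0.32 SE, adjusted p 0.0184 by limma), and is uncertain because its exons overlap those of Gm36099.

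Dcstamp lost its call without WT replicate 2 or 6 or WKO replicate 2, and Tm4sf19 without WT replicate 2. Mmp9, Mmp14 and Serpinb9b lost theirs without any 1 of the WT libraries or without WKO replicate 2, and Mmp9 and Mmp14 also without WKO replicate 1. Over the 31 tested matrix proteases and inhibitors, 1 rose and 2 fell, and the median of 0.03 was -0.11 without WKO replicate 5. Of these 31, 3 were higher (background 10.7%) and 10 lower (background 10.4%) without overlap.

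The receptors Axl and Mertk, with which macrophages take up dying cells, rose in WKO. Of 24 tested genes of efferocytosis and resident-like macrophages, 3 rose and 0 fell, 20 had a positive fold change, 10 were higher without overlap against a background of 10.7%, and the median was 0.34. Without WKO replicate 5, 6 passed as higher. Axl (ENSMUSG00000002602), a receptor tyrosine kinase that binds phosphatidylserine through Gas6, was 637, 581 and 631 in WT and 1940.2, 1875 and 1525 in WKO (log2 difference 1.52 ± 0.13 SE, adjusted p 0.00275 by limma). Mertk, its relative, was 1896, 1744 and 1438 in WT and 3386, 3333 and 3948 in WKO (log2 difference 1.08 ± 0.13 SE, adjusted p 0.0144 by limma). In both genes each WKO library was above each WT library, and the mean of Axl was 616 ± 31.0 in WT and 1780.2 ± 223 in WKO (SD, n = 3 each). F13a1, for a coagulation factor subunit made by resident-like macrophages, was 84.6, 82.1 and 53 in WT and 240.1, 226 and 381 in WKO (log2 difference 1.92 ± 0.27 SE, adjusted p 0.0204 by limma), again with no overlap. F13a1 overlaps an exon of Gm30489 and is uncertain. Axl did not pass without WT replicate 2, and Mertk and F13a1 did not pass without any WT library or without WKO replicate 2; F13a1 was also lost without WKO replicate 1. Stab2, for a scavenger receptor and picked after its values were seen, was 512, 442 and 367 in WT and 883, 754 and 639.8 in WKO (limma adjusted p 0.0734), without overlap.

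Among complement genes C1qa, C1qc and C3 rose. Of 16 tested, 3 rose and 0 fell, and the median was 0.59. Without overlap, 7 were higher (background 10.7%) and 0 lower (background 10.4%). C1qa, for a chain of C1q, the molecule that starts the classical pathway, was 2169, 2161 and 1629 in WT and 5693, 4402 and 4228 in WKO (log2 difference 1.26 ± 0.16 SE, adjusted p 0.0144 by limma). C1qc, for another chain, was 8022, 8517 and 8917 in WT and 14572, 11737 and 13535 in WKO (log2 difference 0.64 ± 0.12 SE, adjusted p 0.0454 by limma), and C1qb, picked after its values were seen, was 11600.0, 12358 and 12176 in WT and 20649, 15938 and 17187 in WKO (limma adjusted p 0.0719). WKO replicate 1 was highest for all 3 chains and no WKO value overlapped WT. C3, the central component of the cascade, was 489, 506 and 319 in WT and 861, 1291 and 1199 in WKO (log2 difference 1.36 ± 0.22 SE, adjusted p 0.0308 by limma), with WKO replicate 2 highest. The calls of C1qa and C3 were lost without any WT library or without WKO replicate 2, and that of C1qc also without WKO replicate 1.

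Fc gamma and Toll-like receptors leaned the same way with fewer calls. Of 27 tested, 1 rose, 24 had a positive fold change, and the median was 0.23, or 0.12 without WKO replicate 5. Without overlap, 10 were higher (background 10.7%) and 0 lower (background 10.4%). Fcgr2b, the inhibitory receptor for IgG, was 1796, 1815 and 1365 in WT and 3624, 3476 and 6947 in WKO (log2 difference 1.43 ± 0.25 SE, adjusted p 0.042 by limma). WKO replicate 5 was highest, and its exons overlap those of Gm38204, so that the count is uncertain. Fcgr3, which shares 37.8% of its transcript with Fcgr2b, was 6713, 6927 and 7761 in WT and 9462, 9388 and 10253 in WKO (log2 difference 0.45 ± 0.11 SE, adjusted p 0.0978 by limma). Unc93b1, which carries nucleic acid-sensing Toll-like receptors to endosomes, was 7989.7, 7886 and 7585 in WT and 9341, 8588 and 10423 in WKO (limma adjusted p 0.305). Fcgr2b was lost without any WT library or without WKO replicate 1 or 2.

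Class II antigen presentation genes had positive fold changes in 14 of 16 tested, with a median of 0.56, but 0 passed by limma or edgeR, 3 passed by DESeq2 and 7 had an unadjusted p below 0.05. Without WKO replicate 5 the median was 0.26. Ciita, the master regulator of class II genes, had the lowest p of the list at 27.9, 37.5 and 35.3 in WT and 73.0, 80.0 and 81.5 in WKO (limma adjusted p 0.0786). H2-Ab1, for a class II beta chain, was 208, 219 and 235 in WT and 344, 291 and 483 in WKO (limma adjusted p 0.14). Both genes were picked after their values were seen, and neither overlapped between the groups. The abundant members Ctsb and Ctsd, for lysosomal cathepsins, had fold changes of 0.07 and -0.03 on the log2 scale. Ciita, Ctsb and Ctsd share exons with neighbouring genes, so that their counts are uncertain.

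Of the genes that handle lipids, Apoe and Cyp27a1 rose and Scd2 fell. Apoe (ENSMUSG00000002985), for the apolipoprotein that carries cholesterol out of macrophages, was 31324, 31864 and 23678 in WT and 71229, 61847 and 72734 in WKO (log2 difference 1.25 ± 0.15 SE, adjusted p 0.0133 by limma). Cyp27a1, for the enzyme that makes 27-hydroxycholesterol, was 429, 412 and 374 in WT and 814, 691 and 1015 in WKO (log2 difference 1.04 ± 0.16 SE, adjusted p 0.0286 by limma). Every WKO value of both lay above WT, and the mean of Apoe was 28955 ± 4578 in WT and 68604 ± 5899 in WKO (SD, n = 3 each). Scd2, for a fatty acid desaturase, fell, at 4444, 4233 and 6956 in WT and 2167, 2444 and 2323 in WKO (log2 difference -1.14 ± 0.18 SE, adjusted p 0.0308 by limma), and WT replicate 6 was its highest library. These were 3 of 26 tested LXR target and lipid handling genes, whose median was 0.01. Scd2 overlaps Mir5114 and is uncertain. Apoe did not pass without any WT library or without WKO replicate 2, and Cyp27a1 and Scd2 also not without WKO replicate 1.

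Genes of cholesterol synthesis were lower throughout. All 22 tested enzymes and regulators had a negative fold change, 4 passed the test, and 15 were lower without overlap, against a background of 10.4%. The median was -0.42, and over the alternatives it ranged from -0.48 to -0.37. Sqle, for squalene epoxidase, was 2301, 2143 and 2294 in WT and 1449, 1217 and 1330.0 in WKO (log2 difference -0.76 ± 0.11 SE, adjusted p 0.0237 by limma). The WKO libraries lay close together below WT. Cyp51, for the lanosterol demethylase, was 1593, 1522 and 1774 in WT and 1007, 1129 and 1068 in WKO (log2 difference -0.61 ± 0.11 SE, adjusted p 0.0489 by limma). Fdps, for farnesyl diphosphate synthase, was 1190.2, 1324 and 1192 in WT and 791, 714 and 507 in WKO (log2 difference -0.90 ± 0.17 SE, adjusted p 0.0495 by limma), with WKO replicate 5 lowest. Srebf2, for the factor that drives the pathway and picked after its values were seen, was 4456, 4566 and 4328 in WT and 3581, 3347 and 3683 in WKO (limma adjusted p 0.164).

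Which enzymes passed depended on the libraries and the tool. The number that passed was 2 by edgeR, 8 by DESeq2 and 9 after the GC and length correction, 2 without WKO replicate 1, 6 without WKO replicate 5 and 0 without WKO replicate 2 or any 1 of the WT libraries. Cyp51 and Fdps overlap exons of Akap9 and of an unnamed gene, so that their counts are uncertain.

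Iron handling genes held 5 calls among 23 tested, 4 higher and 1 lower, with a median of 0.02. Slc40a1 (ENSMUSG00000025993), for ferroportin, the iron exporter, was 3754, 3435 and 2954 in WT and 7691, 8102 and 5748 in WKO (log2 difference 1.08 ± 0.15 SE, adjusted p 0.0214 by limma). Cp, for ceruloplasmin, which oxidizes exported iron, rose from low levels, at 18.2, 12.9 and 11.2 in WT and 94.9, 76.9 and 115 in WKO (log2 difference 2.68 ± 0.34 SE, adjusted p 0.0146 by limma). Trf, for the iron carrier transferrin, was 12621, 11060.0 and 8478 in WT and 26608, 21021 and 24398 in WKO (log2 difference 1.18 ± 0.16 SE, adjusted p 0.0193 by limma). In all 3 genes each WKO library lay above each WT library. Hfe, for a regulator of iron sensing, was 794, 820.0 and 758 in WT and 1302, 1155 and 1380.3 in WKO (log2 difference 0.69 ± 0.12 SE, adjusted p 0.0377 by limma). Steap3, for the reductase that acts on iron taken up with transferrin and picked after its values were seen, was 1776, 1805 and 1989 in WT and 1280.4, 1195 and 1256 in WKO (log2 difference -0.58 ± 0.11 SE, adjusted p 0.0466 by limma), the 1 member that fell. Trf shares 82.1% of its transcript with Gm20425 and Cp overlaps Hps3, so that both are uncertain. Slc40a1, Cp, Trf and Hfe each lost their call without any 1 WT library or without WKO replicate 1 or 2.

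Hypoxia-linked and glycolytic genes leaned lower. Of 40 tested, 1 fell and 0 rose, and 28 had a negative fold change. Without overlap, 17 were lower (background 10.4%) and 6 higher (background 10.7%). The median was -0.35, or -0.27 without WKO replicate 5, when 2 passed as lower. Slc16a3, for the lactate exporter MCT4, was 1510.5, 1379.6 and 1270.1 in WT and 864, 704 and 609 in WKO (log2 difference -0.94 ± 0.15 SE, adjusted p 0.0308 by limma). Slc2a1, for the glucose transporter GLUT1 and picked after its values were seen, was 1809, 1572 and 1706 in WT and 1036, 972 and 1289 in WKO (log2 difference -0.63 ± 0.14 SE, adjusted p 0.0696 by limma). Ak4, for a mitochondrial adenylate kinase known as a hypoxia target but not in that list, was 227, 219 and 151 in WT and 32.2, 47.4 and 57.5 in WKO (log2 difference -2.12 ± 0.28 SE, adjusted p 0.0181 by limma). For all 3 the WKO libraries lay below the WT libraries without overlap. The abundant glycolytic genes Pkm and Gapdh were 30589, 31079 and 30278 in WT and 28805, 23437 and 15955 in WKO and 31796, 31591 and 27518 in WT and 27543, 21442 and 18086 in WKO, with WKO replicate 5 lowest in both (limma adjusted p 0.311 and 0.237). Pkm, Gapdh and Slc2a1 share exons with neighbouring genes, so that their counts are uncertain. Slc16a3 and Ak4 were lost without any WT library or without WKO replicate 2.

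The core of the hypoxia response element, ACGTG, is where hypoxia-inducible factors bind. The promoters of these 3 transporter and kinase genes are shown because all 3 hold it and all 3 genes had lower values in every WKO library. Each line covers the 250 bases before the start on the plus strand of GRCm38.p6 (RefSeq), 5′ to 3′, with the match in capitals, at chr11:120948817-120949066 for Slc16a3, chr4:119108495-119108744 for Slc2a1 and chr4:101419453-101419702 for Ak4.
Slc16a3: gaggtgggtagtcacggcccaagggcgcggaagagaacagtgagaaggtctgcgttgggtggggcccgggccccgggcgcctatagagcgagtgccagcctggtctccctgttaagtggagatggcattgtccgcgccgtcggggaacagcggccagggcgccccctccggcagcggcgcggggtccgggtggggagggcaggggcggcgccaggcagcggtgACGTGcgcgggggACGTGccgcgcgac
Slc2a1: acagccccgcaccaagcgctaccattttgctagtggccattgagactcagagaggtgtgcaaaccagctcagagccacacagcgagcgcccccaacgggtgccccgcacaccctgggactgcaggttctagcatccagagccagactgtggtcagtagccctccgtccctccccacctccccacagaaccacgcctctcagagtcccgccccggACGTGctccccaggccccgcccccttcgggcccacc
Ak4: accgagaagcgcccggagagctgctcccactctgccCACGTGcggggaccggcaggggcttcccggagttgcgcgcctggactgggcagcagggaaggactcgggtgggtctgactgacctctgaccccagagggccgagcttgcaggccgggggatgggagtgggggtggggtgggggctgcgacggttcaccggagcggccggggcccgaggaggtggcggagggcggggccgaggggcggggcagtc
In Slc16a3 the runs begin 27 and 14 bases before the start, in Slc2a1 36 and in Ak4 214 bases before it, where CACGTG matches on both strands. Counted on either strand in the 300-base windows, the letters ACGTG were found for 26 of 37 matched hypoxia and glycolysis genes (70.3%), against 2808 of 9377 matched tested genes (29.9%). They were found for 11 of the 40 matched genes called lower (27.5%) and 6 of the 40 matched genes called higher (15.0%). Because the hypoxia and glycolysis list was chosen for its link to hypoxia, its share does not describe the genotype difference. The 3 printed promoters were picked for holding the letters and for their lower values, so that they do not describe it either. The matches are a description of these letters and show no binding. A part of hypoxia-inducible factors in the lower values was not tested.

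Among the heat shock and unfolded protein response genes, 1 of 31 fell and the median was -0.04. Asns, for asparagine synthetase, a target of the amino acid response, was 309.6, 405 and 409.7 in WT and 205, 168 and 185 in WKO (log2 difference -1.0 ± 0.17 SE, adjusted p 0.0389 by limma), with all WKO values below all WT values. The abundant chaperone genes Calr and Hspa8 had fold changes of -0.19 and 0.04, the latter uncertain for exon overlap. In the cell cycle and DNA replication list, 1 of 39 fell and the median was 0.05. Ccnd1, for cyclin D1, a target of growth factor and adhesion signals, was 9629, 9512 and 11118 in WT and 5564, 6186 and 4578 in WKO (log2 difference -0.90 ± 0.13 SE, adjusted p 0.025 by limma), and Pcna, uncertain for a pseudogene copy, had a fold change of -0.22. Ccnd1 shares 29.5% of its transcript with another gene and overlaps its exons, so that its count is uncertain. Asns and Ccnd1 were lost without any WT library or without WKO replicate 1 or 2.

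The nuclear envelope, DNA sensing and interferon genes, which the title of the series brings into view, held 0 calls by limma or edgeR. By limma 0.953% of all tested genes were called, so that 0 calls in lists of this size is near the background. DESeq2 called 1 interferon gene and 0 of the other 2 lists, and 4, 2 and 3 members of the 3 lists had an unadjusted p below 0.05. Of 28 tested nuclear envelope and ESCRT-III genes, whose products hold and reseal the envelope, 1 was higher and 2 were lower without overlap, and the median was -0.09. Over all tested genes, the background without overlap was 10.7% higher and 10.4% lower. Lmna, for lamin A/C, was 6062, 5736 and 8711 in WT and 6149, 5816 and 7985 in WKO (log2 difference -0.03 ± 0.18 SE, adjusted p 0.968 by limma), and Pdcd6ip, for the ESCRT partner ALIX, was 5511, 5245 and 5219 in WT and 5143, 4666 and 5224 in WKO (log2 difference -0.09 ± 0.10 SE, adjusted p 0.75 by limma). Both overlapped between the groups. Of 21 tested genes of cytosolic nucleic acid sensing, 16 had a positive fold change and the median was 0.13. Without overlap, 3 of the 21 were higher (background 10.7%) and 1 lower (background 10.4%). Samhd1, for a nuclease that limits such sensing, was 4168, 3989 and 3717 in WT and 3955, 4584 and 5175 in WKO. Dnase2a, for the lysosomal DNase, was 2339, 2465 and 2364 in WT and 2256, 2103 and 1879 in WKO. Cgas and Sting1, for the DNA sensor and its adaptor, picked after their values were seen, had fold changes of -0.01 and 0.11. Of 40 tested type I interferon response genes, 3 were higher (background 10.7%) and 2 lower (background 10.4%) without overlap. Their median was 0.03, with a sign that turned negative without WT replicate 6 (-0.02), after the GC and length correction (-0.04) and with the replicate block (-0.06). Lgals3bp and Parp14 of that list had fold changes of 0.15 and 0.22. Of 28 tested p53 target and DNA damage genes 0 passed by limma or edgeR and 1 by DESeq2, 5 had an unadjusted p below 0.05 and the median was 0.03. Cdkn1a, for the inhibitor p21, was 6367, 6281 and 7757 in WT and 5946, 5046 and 10539 in WKO, overlapping widely, and Plk2, for a stress-induced kinase, had a fold change of -0.05. Dnase2a, Parp14 and Cdkn1a share exons with neighbouring genes, so that their counts are uncertain.

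Inflammatory genes varied more between the WKO libraries than between the genotypes. Of 36 tested cytokine and NF-kB target genes, 0 passed by limma, edgeR or DESeq2, and 2 had an unadjusted p below 0.05. Without overlap, 1 was higher (background 10.7%) and 0 lower (background 10.4%). The median was 0.38. It was -0.20 without WKO replicate 5, when 4 members passed as lower, -0.32 with array weights and -0.08 with the replicate block. The median deviation of the list from the WT mean was 0.08, -0.54 and 1.44 in WKO replicates 1, 2 and 5. Tnf was 3293, 5719 and 13390.0 in WT and 4583, 2368 and 17188 in WKO, and Il1b was 637, 870.5 and 705 in WT and 968, 415 and 5615 in WKO (log2 difference 0.84 ± 0.75 SE, adjusted p 0.675 by limma). Both were picked after their values were seen, Il1b is uncertain for its antisense partner Il1bos, and in both WKO replicate 5 was the highest of all 6 libraries and replicate 2 the lowest WKO library. The abundant chemokine gene Ccl9 was 15035, 15255 and 22028 in WT and 8235, 10012 and 18293 in WKO (limma adjusted p 0.387, and 0.0336 without WKO replicate 5), and Tnfaip2, an NF-kB target that is uncertain for its overlap with Gm40578, was 12671, 14220.0 and 12155 in WT and 11843, 8929.6 and 27217 in WKO. The part of the other cells in WKO replicate 5 in these values was not tested.

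Within the interleukin-1 family, receptor genes were called although the cytokines were not. Of 19 tested family, receptor and inflammasome genes, 1 rose and 1 fell, and the median was 0.30, or 0.10 without WKO replicate 5. Without overlap, 7 were higher (background 10.7%) and 2 lower (background 10.4%). Il1r2, for the decoy receptor of interleukin-1, was 12.9, 10.6 and 12.1 in WT and 66.7, 62.1 and 41.9 in WKO (log2 difference 2.15 ± 0.38 SE, adjusted p 0.0434 by limma). Il1rl1, for the interleukin-33 receptor ST2, was 172, 122 and 194 in WT and 49.4, 52.6 and 20.4 in WKO (log2 difference -2.06 ± 0.38 SE, adjusted p 0.0466 by limma), with WKO replicate 5 lowest. Il1rn, for the interleukin-1 receptor antagonist and picked after its values were seen, was 5586, 5782 and 6812 in WT and 1453, 1443 and 4158 in WKO, below WT in all 3 WKO libraries (limma adjusted p 0.0854). Il1r2 and Il1rl1 were lost without any WT library, without WKO replicate 1 or 2, or by edgeR (adjusted p 0.051 and 0.0543).

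Immediate early genes had positive fold changes in 33 of 34 tested, with 2 called higher, 7 higher without overlap (background 10.7%) and a median of 0.40. The median was 0.08 without WKO replicate 5 and -0.08 with array weights, and the list deviated by 0.40, -0.23 and 1.06 in WKO replicates 1, 2 and 5. Fosb, for an AP-1 subunit, was 2011, 1546 and 1779 in WT and 4549.7, 3556 and 8619 in WKO (log2 difference 1.55 ± 0.28 SE, adjusted p 0.0449 by limma). Klf4, for a zinc finger factor induced in stressed macrophages, was 1029.5, 717 and 1043 in WT and 2158, 1720.2 and 1965 in WKO (log2 difference 1.08 ± 0.17 SE, adjusted p 0.0282 by limma), with WKO libraries close together above WT. Both were lost without any WT library or without WKO replicate 1 or 2, and Fosb also by edgeR (adjusted p 0.051). Without WKO replicate 5, 2 members passed as higher and 1 as lower.

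The remaining lists held 0 calls by limma or edgeR. DESeq2 called 1 Nrf2 gene, 2 lysosomal genes and 0 in the other 2 lists, and 2 genes of oxidative phosphorylation, 6 of Nrf2, 7 of lysosomes and 1 of ribosomes had an unadjusted p below 0.05. The median was -0.14 over 43 genes of oxidative phosphorylation, with Atp5b and Atp5a1 at -0.32 and -0.19. It was 0.00 over 24 Nrf2 antioxidant genes, with Prdx1 and Sqstm1 at -0.50 and 0.29, and -0.05 over 37 lysosome and vacuolar ATPase genes, with Psap at 0.02. The 47 tested ribosomal protein genes had a median of -0.06, with Rplp0 and Rpsa at -0.09 and 0.02. Atp5a1, Sqstm1, Prdx1, Rplp0 and Rpsa share exons or sequence with other genes and are uncertain. Without WKO replicate 5, the median was -0.03 for oxidative phosphorylation and 0.09 for ribosomal proteins. The medians of these 4 lists and of the nucleation promoter, nuclear envelope, interferon, p53, heat shock, cell cycle, iron, LXR and matrix protease lists changed sign under at least 1 alternative. Without overlap, 1 was higher and 9 were lower of the 31 heat shock genes, 2 higher and 10 lower of the 37 lysosomal, 0 and 4 of the 43 oxidative phosphorylation, 3 and 4 of the 24 Nrf2 and 2 and 0 of the 47 ribosomal genes. The background over all tested genes was 10.7% higher and 10.4% lower.

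**Figure D3:**
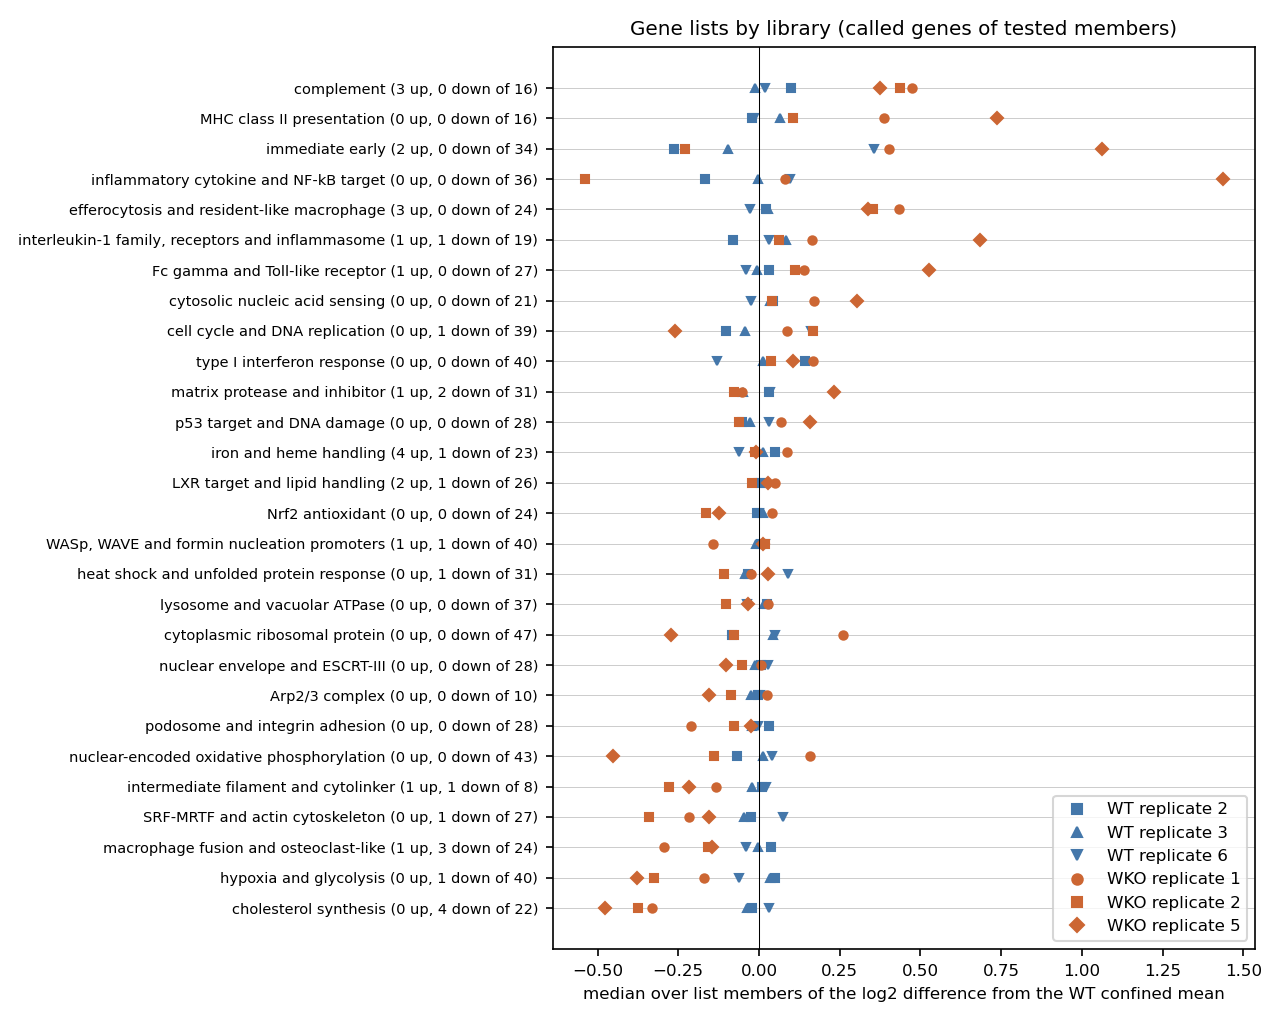
Each row is 1 of the 28 functional lists and each point 1 confined library, placed by the median over the tested members of its log2(normalized read count + 1) minus the mean of the 3 WT libraries. Cholesterol synthesis lies below WT and complement and efferocytosis above WT in all 3 WKO libraries, whereas inflammatory genes range from below all WT libraries in WKO replicate 2 to far above them in replicate 5, and immediate early genes from within the WT range in WKO replicate 2 to far above it in replicate 5.

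Other large changes fell outside these lists. Among the genes that rose, Cmklr1, for the chemerin receptor, was 260.3, 293 and 210.5 in WT and 777, 653 and 895 in WKO (log2 difference 1.60 ± 0.18 SE, adjusted p 0.00985 by limma). Plxdc2, for a plexin domain membrane protein, was 84.6, 85.6 and 45.8 in WT and 253, 295 and 303 in WKO (log2 difference 2.01 ± 0.26 SE, adjusted p 0.0161 by limma). Hpgd, for the enzyme that degrades prostaglandins, rose from low levels at 13.9, 29.3 and 10.4 in WT and 149, 137 and 71.9 in WKO (log2 difference 2.73 ± 0.45 SE, adjusted p 0.0336 by limma). All 3 were free of overlap between the groups. Slco2b1, for an organic anion transporter, was 421, 357 and 295 in WT and 1256, 1124 and 808 in WKO (log2 difference 1.56 ± 0.20 SE, adjusted p 0.0144 by limma), and Sorbs3, for vinexin, which binds vinculin, was 65.3, 68.0 and 65.9 in WT and 259.7, 153 and 228 in WKO (log2 difference 1.63 ± 0.24 SE, adjusted p 0.0217 by limma). Both share exons with neighbouring genes, so that their counts are uncertain. Cmklr1 was lost without WT replicate 2 or 6, Plxdc2 without WT replicate 2 or 3 or WKO replicate 1 or 2, Slco2b1 without any WT library or WKO replicate 2, and Hpgd and Sorbs3 without any WT library or WKO replicate 1 or 2.

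Among the genes that fell, Nptx1, for a neuronal pentraxin, was 1439, 1278 and 1922 in WT and 418, 482 and 303 in WKO (log2 difference -1.95 ± 0.21 SE, adjusted p 0.00835 by limma). Dio2, for the deiodinase that activates thyroid hormone, was 476, 459 and 416 in WT and 115, 92.6 and 204 in WKO (log2 difference -1.79 ± 0.27 SE, adjusted p 0.0249 by limma). Cdkn1c, for the cell cycle inhibitor p57, was 167, 218 and 184 in WT and 74.5, 28.4 and 55.1 in WKO (log2 difference -1.92 ± 0.34 SE, adjusted p 0.042 by limma). The groups did not overlap in any of them. Gm20056, a predicted gene, was 388, 316 and 341 in WT and 67.5, 70.5 and 95.9 in WKO (log2 difference -2.16 ± 0.20 SE, adjusted p 0.0039 by limma), but Chp1 covers all of its transcript at 98.6% identity and its count is uncertain. Dio2 and Cdkn1c overlap exons of Gm26512 and Gm44732 and are uncertain too. Chst11, for a chondroitin sulfotransferase and picked after its values were seen, was 2930.0, 2438 and 3170.0 in WT and 1086, 1156 and 899.8 in WKO (log2 difference -1.44 ± 0.14 SE, adjusted p 0.00549 by limma). Nptx1 and Gm20056 were lost without WT replicate 2, Cdkn1c without any WT library or WKO replicate 2, and Dio2 also without WKO replicate 1.

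Markers of several other cell types were at higher levels in WKO, beginning with stromal cells. The summed normalized count of 20 stromal markers was 2871, 2550 and 2257 in WT and 8421, 4231 and 20139 in WKO, with no overlap. By limma and edgeR 0 of the 18 tested passed, by DESeq2 11, and 16 had an unadjusted p below 0.05. All 18 had a positive fold change and 13 were higher without overlap (background 10.7%), and the median was 3.15, or 2.41 without WKO replicate 5. Col1a1, for a collagen chain, was 45.0, 41.1 and 202 in WT and 1036, 180.0 and 3402 in WKO, and Fn1, for fibronectin and uncertain for exon overlap, was 2437, 2170.3 and 1002 in WT and 3478, 2622 and 4308 in WKO. Ccn2, a matrix-linked gene that stromal cells also express, rose most among all called genes, at 2.14, 17.6 and 25.7 in WT and 196, 120.0 and 433 in WKO (log2 difference 4.23 ± 0.77 SE, adjusted p 0.0462 by limma). Its value in WT replicate 2 was below the floor of 3 reads, it overlaps Gm15270 and is uncertain, and it was lost when any 1 library was left out, with an adjusted p of 0.0501 without WKO replicate 5. The part of stromal RNA in the higher values of Ccn2 and Mmp14 was not tested.

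Granulocyte and B-lineage markers were higher in WKO with another order of libraries. The granulocyte sum was 6974, 8834 and 2771 in WT and 24279.7, 30598 and 7732 in WKO, with the lowest WKO value of replicate 5 below that of WT replicate 3, and the median of 14 tested markers was 1.75. Of these 14, 0 passed by limma or edgeR, 4 by DESeq2, 11 had an unadjusted p below 0.05, and 2 were higher without overlap (background 10.7%). Without WKO replicate 5 the median was 2.47 and 10 passed. Ngp and Ltf, for granule proteins, were 2243, 2941 and 911 in WT and 7311, 10327 and 2835 in WKO and 2020.5, 2367 and 669 in WT and 5725, 7768 and 1771 in WKO, with limma adjusted p of 0.165 and 0.271, and 0.0257 and 0.0413 without WKO replicate 5. The B-lineage sum was 933, 849 and 427 in WT and 6787, 4808 and 1908 in WKO, and the median of 6 tested markers was 2.31. Ighm, for the heavy chain of IgM, rose at 698, 575 and 388 in WT and 5093, 3415 and 1517 in WKO (log2 difference 2.47 ± 0.39 SE, adjusted p 0.0308 by limma), was highest in WKO replicate 1, and was lost without any WT library or without WKO replicate 1 or 2. Igkc, for the kappa chain, was 75.0, 143 and 8.84 in WT and 1335, 918 and 222 in WKO (log2 difference 3.77, limma adjusted p 0.112; 4.54 and 0.0356 without WKO replicate 5), while Igll1 was at 0 in all libraries. The part of these cells in the genes that rose was not tested.

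Macrophage markers other than Cx3cr1 were at a normalized count of at least 1438 in every confined library. Of 14 tested, 1 rose, which was Mertk described above, 0 fell, and the median was 0.20. Lyz2, for lysozyme, was 125930.0, 122940.0 and 100510.0 in WT and 174780.0, 164000.0 and 200200.0 in WKO (limma adjusted p 0.101), higher in all WKO libraries but uncertain for its near copy Lyz1, and Lpl, for lipoprotein lipase, was 142350.0, 144060.0 and 143540.0 in WT and 116480.0, 121570.0 and 92973 in WKO (limma adjusted p 0.265), lower in all of them. The T and natural killer list had 1 tested member, Cd4, which mouse macrophages can express, at 219, 225 and 222 in WT and 431, 364 and 394 in WKO (log2 difference 0.83 ± 0.14 SE, adjusted p 0.0372 by limma), whereas the summed level of all 12 members was 223, 229.9 and 227 in WT and 467, 386 and 403 in WKO. Of the defining markers, Cd3g, Trac and Ncr1 were at 0 in the confined libraries, Cd3d was 0, 0 and 0 in WT and 3.92, 2.11 and 0 in WKO, Cd3e 0, 0 and 0 in WT and 0, 3.16 and 0 in WKO, Lck 0, 3.52 and 3.21 in WT and 5.49, 13.7 and 5.99 in WKO and Gzma 0, 0 and 0 in WT and 19.6, 0 and 0 in WKO. Cd4 was lost without any WT library or without WKO replicate 1 or 2. The medians were 0.21 over 3 mast cell, 0.58 over 6 dendritic cell (-0.51 over those with a mean of at least 50) and 0.46 over 4 erythroid and megakaryocyte markers, and -0.06 over 4 sex-linked transcripts. These lists held 0 calls by limma or edgeR and 1, 2, 2 and 0 by DESeq2, and 1, 3, 2 and 0 members had an unadjusted p below 0.05. The dendritic cell sum was lower in most WKO libraries, at 7167, 6837 and 4729 in WT and 5018, 3975 and 3232 in WKO. Itgax made up most of this sum, whereas 4 of the 6 tested members had a positive and 2 a negative fold change. Flt3, picked after its values were seen, was 2.14, 1.17 and 3.21 in WT, near the floor, and 18.0, 28.4 and 15.6 in WKO. Siglech, likewise picked, was 13.9, 12.9 and 3.21 in WT and 38.4, 45.3 and 16.8 in WKO, and neither gene overlapped between the groups. The mast cell sum was 104, 109 and 148 in WT and 275, 209.5 and 47.9 in WKO, so that replicate 5 was below all WT libraries. The erythroid and megakaryocyte sum was 4219, 4150.5 and 3925 in WT and 8018, 4879.6 and 6564 in WKO, and Pf4 made up most of it. Among these, Kit was 70.7, 79.8 and 121 in WT and 43.2, 41.1 and 34.7 in WKO, Prss34 12.9, 0 and 4.02 in WT and 124, 114 and 1.20 in WKO (adjusted p 0.445 by limma, and 0.0375 without WKO replicate 5), Itgax 5790.4, 5541 and 3439 in WT and 3458, 2911 and 2237 in WKO, Bst2 1297, 1225 and 1249 in WT and 1426, 914 and 882 in WKO, Pf4 4159, 4071 and 3747 in WT and 7697, 4703 and 6385 in WKO and Itga2b 9.64, 43.4 and 55.4 in WT and 246, 125 and 119.8 in WKO.

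**Figure D4:**
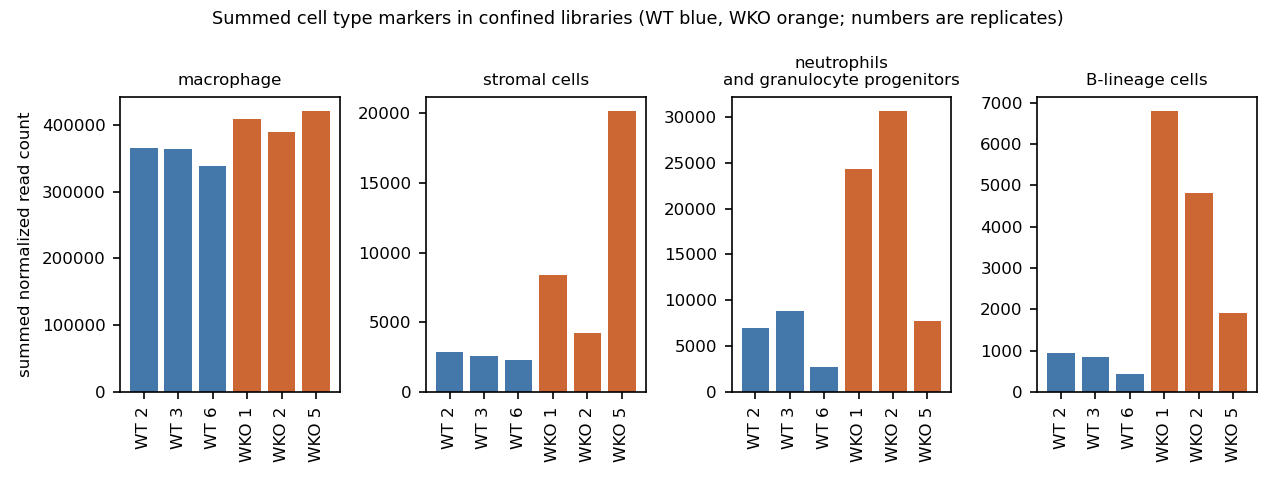
Bars are the confined libraries, WT in blue and WKO in orange. The vertical axes give the summed normalized read count of the macrophage, stromal, granulocyte and B-lineage marker lists. Macrophage sums lie between 337709 and 420140 in all libraries, while the stromal sum reaches 20139 in WKO replicate 5 and the granulocyte and B-lineage sums are highest in WKO replicates 1 and 2.

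The unconfined libraries allowed the same genes to be read in cells that had not been pressed, with no library in common. All 118 genes had the same sign there, and in 107 the 2 WKO libraries did not overlap the 2 WT libraries, where the background was 22.0% of all tested genes higher and 22.8% lower. In their direction of change, the median log2 difference was 0.89 unconfined and 1.18 confined, the values by which the 118 were chosen being the confined ones. Nes was 1841 and 1582 in unconfined WT and 511 and 478 in unconfined WKO, Tm4sf19 was 362 and 329 in unconfined WT and 97.7 and 100.1 in unconfined WKO, and Dcstamp was 259 and 304 in unconfined WT and 81.9 and 106 in unconfined WKO. In all 3 the unconfined groups did not overlap.

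The difference between the confined and the unconfined genotype effect was tested as an interaction over all 10 libraries. By limma 0 of 12381 genes passed (0.0%), 260 had an unadjusted p below 0.05, and the lowest adjusted p was 0.999; in the 13 alternatives 0 passed as well, with between 178 and 726 genes at an unadjusted p below 0.05. Of the 118 genes, 15 had an unadjusted interaction p below 0.05, 14 of them among the genes that rose and the other being Was. Axl was 1136 and 1655 in unconfined WT and 2277 and 2702 in unconfined WKO (interaction p 0.0158 unadjusted, 0.999 adjusted), and Abi3 was 219 and 512 in unconfined WT and 431 and 441 in unconfined WKO (interaction p 0.0162 unadjusted, 0.999 adjusted). In both genes the unconfined WT replicates differed from each other. Klf4 was low in all unconfined libraries, at 101 and 89.2 in unconfined WT and 89.8 and 154 in unconfined WKO (interaction p 0.0363 unadjusted, 0.999 adjusted). Marker sums also differed between the unconfined genotypes: the granulocyte sum was 7928 and 11848 in WT against 32936 and 27285 in WKO, the stromal sum 3553 and 4985 against 6731 and 7012, and the dendritic cell sum 6566 and 7476 against 4126 and 4219. Itgax made up most of the dendritic cell sum here too, at 5385 and 6294 in unconfined WT and 2661 and 3044 in unconfined WKO. Of the stromal sum, Fn1 was 2233 and 2296 in unconfined WT and 2919 and 2513 in unconfined WKO.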

How the data were processed

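Polyadenylated RNA of 10 libraries was sequenced, and groups and replicate numbers come from the genotype and treatment labels and titles. The deposited file is a matrix of normalized read counts, that is a signal and not raw counts, for 57010 Ensembl identifiers; FastQC, Trim Galore, STAR, GRCm38 and mm10 are listed, per the submitters' processing notes, with no role or version. How reads were counted, with which annotation and whether by strand is not given in the sources used here. Values above 0 were multiples of 1 unit per library in 100% of cases, to within 0.001 reads, which gave back whole reads, and all 10 factors equalled DESeq2's median-of-ratios factors to a relative tolerance of 1e-12. Such scaling leaves differences in composition, GC content and length in place.

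Genes with a mean of at least 10 over the 6 confined libraries (12381) were tested as log2(value + 1), which understates the change of low genes, with limma 3.58.1 in R 4.3.3 (mean-variance trend, 4 residual degrees of freedom, Benjamini-Hochberg threshold 0.05). The interaction used all 10 libraries with 1 mean per group. Of the tested genes, 11755 had a symbol in the table, 528 took one from GENCODE M21 and 98 had none. As 4981 identifiers are not in M21, no gene coordinates are given, and exon overlap, GC content and length come from M21. Sequence shared with another gene (20% or more of its longest transcript, in stretches of 100 bases or more with 95% identity or more) was found with blastn 2.17.0. Promoters are RefSeq windows of GRCm38.p6, and 9377 tested genes had one.

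Named genes were Was, the 12 largest changes in each direction among called genes of a mean from 50 upward and without overlap, up to 4 called members of each list with the smallest p, and the 2 most abundant tested members where fewer than 2 were called. Members and lists were chosen with earlier results of these data known. Replicate libraries differed by more than sampling noise (chi-square per degree of freedom 7.56 to 78.3), so that none was counted as a duplicate. Detection floors cover counting error only, because no molecular identifiers are described that would tell PCR copies apart. Alternatives were edgeR 4.0.16 and DESeq2 1.42.0 on recovered reads, other scalings, pseudocounts and filters, no trend, array weights, a GC and length correction, a replicate block, all 10 libraries, and each confined library left out in turn. The labels give no batch. The limma test was also run on simulated data, with means and 1 dispersion for both groups taken from these data. Its outcome is not reported here. Values of some named genes are not reported here.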

Additional observations from a re-analysis of the deposited data

How the results depend on the processing

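The count of 118 called genes differed between analyses. It was 323 with all 10 libraries in the fit, 600 by DESeq2, 327 with the GC and length correction, 1635 with array weights, which gave WKO replicate 2 a weight of 3.68 against 0.30 and 0.34 for replicates 1 and 5, and 12 without the trend; the cause was not tested. Leaving out each confined library in turn gave between 2 and 255. It was 86 by edgeR, and between 115 and 136 with TMM or upper-quartile scaling, pseudocounts of 0.5 and 5, no filter or a mean of at least 50. The replicate block, in a fit of all 10 libraries, gave 269, of which 85 were among the 118. Of the 12 without the trend, 9 were among the 118. The labels do not say whether the numbers pair libraries, and WT and WKO confined share number 2 only. The deviations of libraries with the same number correlated between -0.11 and 0.08. Of these correlations, 1 was between the confined genotypes (0.08), which is too few to decide on pairing. The Was level, as a log2 fold change, was between -4.03 and -3.85 in all alternatives, and the interaction had 0 calls by limma in all 13 that were run. None of the 49 called named genes changed sign in an alternative, and Was and Nes were the 2 of them that passed in all 19 alternatives. Of the 47 other named genes, 20 passed in at least 1 alternative. Some of the 47 changed sign by more than 1 SE, such as Tnfaip2 and Cdkn1a in 3 alternatives each. With 3 libraries a group and more spread within WKO, smaller differences were not detectable, and a miss of the threshold does not show equal levels.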
